A study of Tupaia belangeri with 15 samples.

Results

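The neuropeptide genes chosen for the tree shrew (TS, Tupaia belangeri) retina were TAC1, VIP, SST, NPY, PENK, CCK, CRH, GAL, ADCYAP1 and CARTPT, 10 of the 83605 features counted. They were found in the files by gene name, and each name was listed once under the plain symbol. A duplicated CARTPT-like feature, CARTPTli1, held more counts than CARTPT (8658 against 315 unique molecular identifiers, UMIs) and is described beside it as a copy, not as a member. Summed over all libraries NPY had 5231 UMIs, VIP 4693, TAC1 3800, ADCYAP1 3236, SST 2903, CRH 961, CCK 796, PENK 554, CARTPT 315 and GAL 82. In the files the 5 most counted members carry the identifiers TSDBGID.22940 (NPY), TSDBGID.20847 (VIP), TSDBGID.22857 (TAC1), TSDBGID.7440 (ADCYAP1) and TSDBGID.3450 (SST).

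Nuclei were isolated from 15 frozen retinas and sequenced as single-nucleus RNA libraries (10x Genomics, 3′ end), with 5 retinas each labelled Infancy, Mature and Senile. No group was treated, and the labels give age only as these stages. The Infancy and Mature animals came from one animal centre and the Senile animals from another institute, so that every comparison with the Senile group also compares sources. In each stage the libraries came in 2 sets, 7 retinas labelled as processed with the earlier Cell Ranger release and as polyA RNA, and 8 with the later release and as total RNA. This split (3 and 2 retinas in Infancy, 2 and 3 in Mature and in Senile) is called the release here, and what separates the sets besides the software cannot be told apart.

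Neuropeptides are short signals cut from larger precursors by prohormone convertases, packed into dense-core vesicles and read by G-protein-coupled receptors. In the mammalian retina they mostly belong to amacrine cells (ACs), inhibitory interneurons that also use GABA or glycine, and to smaller sets of retinal ganglion cells (RGCs), whose axons form the optic nerve. Substance P, vasoactive intestinal peptide and neuropeptide Y each mark sparse AC types in other mammals, and such peptides are known to adjust the gain of inner retinal circuits and the tone of vessels and glia.

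Libraries held 13429873 to 58734300 UMIs. Filters on genes (200 to 6000) and mitochondrial UMIs (at most 5%, over the 1 feature named as mitochondrial) kept 119765 nuclei. Of these 7940 were removed as likely doublets and 69938 were assigned a class by marker genes that included no peptide. These comprised 14609 AC nuclei (523 to 1306 per retina), 6781 RGC nuclei (68 to 889), 19332 bipolar, 14945 cone and 8963 Müller nuclei and smaller classes, and 37.5% of the nuclei left after doublet removal stayed without a class. The AC class carried its defining markers (TFAP2A 307, TFAP2B 327 and PAX6 737 CPM, the UMIs of a gene per 1000000 UMIs of all features), and RBPMS, an RGC marker, was at 311 CPM in the RGC class and 8.43 in the AC class. GAD2, SLC32A1 and POU4F2, defining markers of GABAergic ACs and RGCs, were at 0 in every library, and GAD1 was at 7.99 CPM in AC nuclei. Any pair of libraries shared 4 to 30 barcodes, at most 0.422% of the smaller library.

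TAC1, VIP and NPY were peptides of AC nuclei, whereas SST and ADCYAP1 had their highest levels in RGC nuclei. Levels are CPM of the counts summed over the nuclei of one class in one retina. They are not corrected for transcript length, so genes are not ranked against each other. Among the gated classes, 9 of the 10 members had their highest mean over the 15 retinas in AC or RGC nuclei, also when the abundant non-coding feature LINC-FRMD8-1 (12.1% to 21.2% of UMIs) was taken out of the total. Pooled over retinas, nuclei without a class exceeded both for CRH (4.06 CPM against 2.59 in AC and 3.73 in RGC nuclei) and PENK (1.93 against 1.51 and 1.82). The exception among the gated classes was GAL, the galanin precursor, with a mean of 0.374 CPM in AC nuclei, 7 of 15 retinas at 0 there and 13 of 15 at 0 in RGC nuclei.

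**Figure D1:**
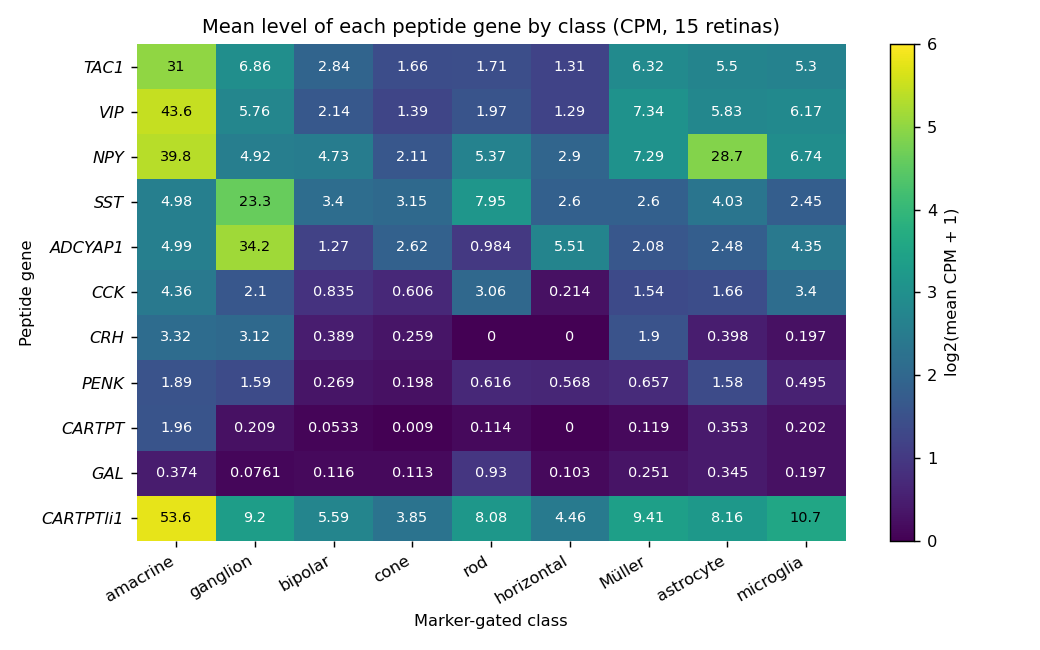
Mean level of the 10 peptide genes and the CARTPTli1 copy (rows) in 9 nucleus classes (columns) over 15 retinas, with each cell giving the mean CPM and coloured by log2 of the mean CPM plus 1. TAC1, VIP and NPY are highest in AC nuclei (31.0, 43.6 and 39.8 CPM) and SST and ADCYAP1 in RGC nuclei (23.3 and 34.2 CPM).

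TAC1 encodes the precursor of substance P and neurokinin A, tachykinins of some AC types in other mammals. In AC nuclei it was at 81.5, 79.5, 71.1, 12.2 and 3.78 CPM in Infancy retinas 1 to 5, at 40.1, 27.7, 5.44, 5.93 and 3.74 in Mature retinas 1 to 5, and at 19.4, 72.2, 18.7, 13.7 and 10.2 in Senile retinas 1 to 5. In each stage the retinas of the earlier release were highest, and the ranges of the 3 stages overlapped. Over the 15 retinas TAC1 averaged 31.0 ± 29.8 CPM in AC nuclei (SD), 6.86 ± 6.84 in RGC nuclei, 2.84 in bipolar and 1.66 in cone nuclei. The Müller mean of 6.32 CPM (median 1.18) rested on 1 nucleus of Mature retina 2 with 71 TAC1 UMIs: that retina was at 70.7 CPM with it and 1.95 without.

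VIP encodes vasoactive intestinal peptide, which acts through VIPR1 and VIPR2 to raise cyclic AMP. In AC nuclei it was at 121, 107, 205, 3.06 and 6.48 CPM in Infancy retinas 1 to 5, at 63.0, 56.3, 3.26, 4.74 and 4.03 in Mature retinas and at 18.0, 21.3, 33.3, 1.37 and 5.83 in Senile retinas. The 5 Infancy and Mature retinas of the earlier release lay above every other retina. The mean was 43.6 ± 59.1 CPM in AC nuclei (SD, n = 15) against 5.76 ± 7.57 in RGC, 2.14 in bipolar, 1.39 in cone and 7.34 in Müller nuclei. A single Müller nucleus of Infancy retina 3 held 61 VIP UMIs, and that retina's Müller level was 72.3 CPM with it and 14.3 without.

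NPY encodes neuropeptide Y, an inhibitory transmitter found in amacrine and glial cells of several species. In AC nuclei it was at 121, 116, 54.3, 7.76 and 6.21 CPM in Infancy retinas 1 to 5, at 25.9, 62.4, 11.5, 15.2 and 12.1 in Mature retinas and at 42.1, 61.5, 42.9, 7.30 and 11.7 in Senile retinas. Senile retina 3 was the only retina of the later release that reached the range of the earlier one. NPY averaged 39.8 ± 37.7 CPM in AC nuclei, 4.92 ± 5.24 in RGC and 7.29 in Müller nuclei (SD, n = 15). Its astrocyte mean of 28.7 ± 76.2 CPM rested on 21 UMIs from 54 nuclei of Senile retina 2 (297 CPM) and 26 UMIs of Infancy retina 2 (67.9 CPM).

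**Figure D2:**
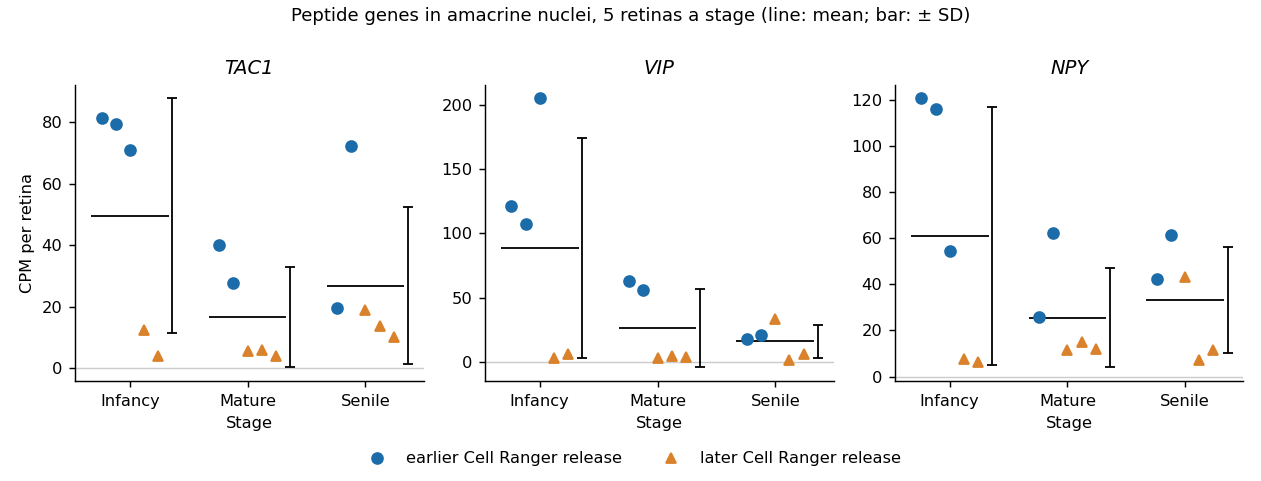
Level in CPM (linear axis) of TAC1, VIP and NPY in AC nuclei of each of the 15 retinas, by stage; circles are retinas of the earlier and triangles of the later Cell Ranger release, the line is the stage mean and the bar its SD (n = 5). The stages overlap for each gene, and within a stage the circles lie above nearly all triangles.

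SST encodes somatostatin, which in other mammals lies in displaced amacrine and ganglion cells and acts largely through SSTR2 in the retina. In RGC nuclei it was at 15.9, 49.7, 33.6, 12.8 and 32.3 CPM in Infancy retinas 1 to 5, at 6.94, 28.7, 15.0, 8.27 and 0 in Mature retinas and at 11.2, 99.6, 12.1, 17.2 and 6.87 in Senile retinas. Mature retina 5 had 68 RGC nuclei, in which 3 UMIs would be 4.11 CPM, so a low level could not be seen there. The highest value, that of Senile retina 2, came largely from 1 nucleus with 157 SST UMIs and was 23.7 CPM without it. SST averaged 23.3 ± 24.8 CPM in RGC nuclei and 4.98 ± 5.10 in AC nuclei (SD, n = 15). The rod mean of 7.95 CPM included 7 UMIs that gave 75.9 CPM in Senile retina 2, and the cone level of Mature retina 1 was 13.0 CPM with and 1.48 without 1 nucleus of 93 SST UMIs.

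ADCYAP1 encodes PACAP, a peptide related to VIP that in rodents lies in the melanopsin RGCs projecting to the clock. In RGC nuclei it was at 42.9, 45.6, 44.6, 19.2 and 31.3 CPM in Infancy retinas 1 to 5, at 39.7, 30.4, 29.7, 22.0 and 43.8 in Mature retinas and at 49.0, 49.3, 24.7, 14.8 and 26.0 in Senile retinas. It varied least of the 5 well-counted members, 34.2 ± 11.5 CPM (SD, n = 15), with no retina below 14.8. Its means were 4.99 ± 2.69 CPM in AC nuclei, 5.51 in horizontal, 2.62 in cone, 2.08 in Müller and 1.27 in bipolar nuclei.

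**Figure D3:**
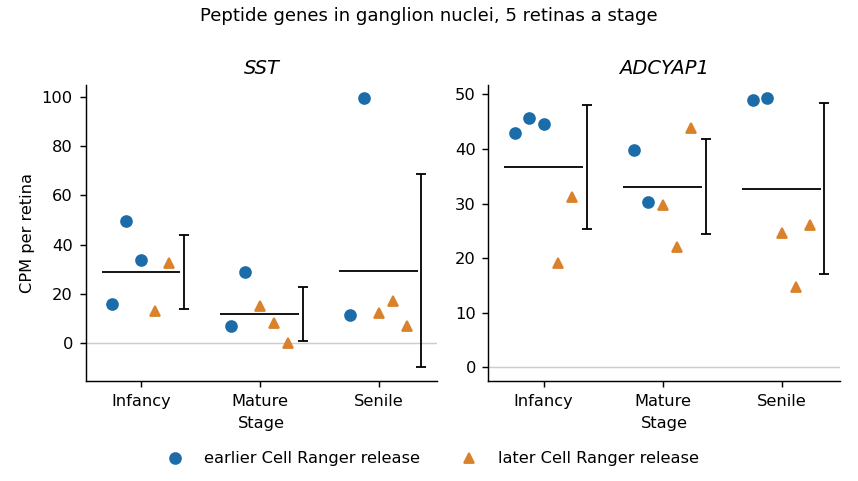
Level in CPM (linear axis) of SST and ADCYAP1 in RGC nuclei of each of the 15 retinas, by stage; circles are retinas of the earlier and triangles of the later Cell Ranger release, the line is the stage mean and the bar its SD (n = 5). ADCYAP1 spans 14.8 to 49.3 CPM with overlapping stages, and SST is spread by Senile retina 2 at 99.6 CPM.

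The other 5 members were rare. CCK, cholecystokinin, reached 10.8, 13.6 and 7.33 CPM in AC nuclei of Infancy retinas 1 to 3 and 11.5 in Senile retina 2, was between 0.27 and 6.01 in the other retinas, and averaged 4.36 ± 4.42 CPM (SD, n = 15). PENK, the enkephalin precursor, averaged 1.89 ± 2.16 CPM in AC nuclei and 1.59 in RGC nuclei. CRH, corticotropin-releasing hormone, averaged 3.32 ± 5.50 CPM in AC and 3.12 ± 5.17 in RGC nuclei. It was at 18.8 CPM in AC nuclei of Infancy retina 1, 13.3 in Mature retina 2, and 15.5 and 15.6 in RGC nuclei of Infancy retinas 1 and 3. The AC-gated nuclei with at least 2 CRH UMIs had a profile unlike that of other AC nuclei, given in the last section. CARTPT, the CART peptide precursor, averaged 1.96 ± 1.32 CPM in AC and 0.209 in RGC nuclei, and its copy CARTPTli1 53.6 ± 27.0 and 9.20 CPM. Reads of CARTPT and CARTPTli1 cannot be told apart with certainty where their sequences agree.

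The class model tested which of these differences exceeded the spread between retinas: edgeR's quasi-likelihood test on the summed counts of AC, RGC, bipolar, cone and Müller nuclei of the 15 retinas, with the retina as a block and Benjamini-Hochberg adjustment over 17010 features. Classes differ at most genes, so calls are common: 51.4% of features were called between AC and RGC nuclei (24.6% higher in AC, 26.9% lower). Of the 10 members, 5 had counts enough to be tested, and all 5 were called, 3 higher in AC and 2 higher in RGC nuclei. NPY was higher in AC nuclei by 2.89 ± 0.26 on the log2 scale (SE, adjusted p = 8.68e-15), VIP by 2.51 ± 0.31 (adjusted p = 2.22e-10) and TAC1 by 2.16 ± 0.31 (adjusted p = 1.45e-08). ADCYAP1 was lower in AC than in RGC nuclei, at -2.77 ± 0.16 (adjusted p = 7.68e-24), and SST at -2.36 ± 0.37 (adjusted p = 1.44e-07). CARTPTli1 was higher in AC nuclei by 2.62 ± 0.23. Within the earlier and the later release alone, a split made after the data were seen, the 5 members kept direction and call (48.3% and 37.1% of features called): VIP was at 3.01 and 1.32, TAC1 at 2.34 and 1.78, NPY at 3.33 and 2.09, SST at -2.37 and -2.17 and ADCYAP1 at -2.59 and -2.85.

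Against the mean of bipolar, cone and Müller nuclei, where 74.5% of features were called (36.2% higher), VIP was higher in AC nuclei by 3.62 ± 0.24 (log2, SE), TAC1 by 3.16 ± 0.25, NPY by 3.11 ± 0.19 and ADCYAP1 by 1.26 ± 0.17, each called. SST differed by 0.41 ± 0.36 there (adjusted p = 0.304) and was not called. RGC nuclei against the same classes, with 74.8% of features called (37.7% higher), were higher in ADCYAP1 by 4.03 ± 0.14, in SST by 2.77 ± 0.31, in VIP by 1.11 ± 0.32 (adjusted p = 0.00173) and in TAC1 by 1.00 ± 0.31 (adjusted p = 0.00355), and NPY was at 0.22 ± 0.27 (adjusted p = 0.464). The TAC1 call in RGC nuclei was lost in the 8 retinas of the later release (0.79, adjusted p = 0.0804, where 60.5% of features were called) and with the gate on the study's markers (0.48, adjusted p = 0.210). With that gate SST in AC nuclei and NPY in RGC nuclei, both not called, turned sign against these classes. A single RGC nucleus held 73 of the 311 VIP UMIs of RGC nuclei.

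Measured retina by retina as log2(CPM + 1) with a 2-sided exact sign-flip permutation test, VIP in AC nuclei exceeded the highest of bipolar, cone and Müller nuclei in 15 of 15 retinas, by a mean of 2.12 (p = 6.10352e-05, the smallest 15 retinas allow). NPY did so in 15 of 15 retinas by 2.00 and TAC1 in 14 of 15 by 2.15 (exact permutation p = 0.000305176). ADCYAP1 in RGC nuclei did so in 15 of 15 retinas by 3.09 and SST in 12 of 15 by 1.76 (exact permutation p = 0.00323486). Against the highest of all other classes, small ones included, TAC1 was at 1.04, VIP at 1.02, NPY at 0.96 and ADCYAP1 at 1.76, each with p of 0.01 or less, and SST at 0.52 in 9 of 15 retinas (exact permutation p = 0.179016). Class by class SST in RGC nuclei exceeded rods by 2.31 in 14 of 15 retinas (exact permutation p = 0.000854492) and astrocytes by 2.46 in 13 (p = 0.000488281). The reference for the 0.52 is whichever class was highest in each retina. The rare CARTPT was higher in AC nuclei than in the 3 classes in 13 retinas and lower in none, by 1.23 (exact permutation p = 0.000244141). CCK was at 0.62 and PENK at 0.48, each higher in 11 of 15 retinas (exact permutation p = 0.0102539 and 0.024231), and CRH at 0.36 in 9 of 15 (p = 0.245178). Class by class CCK in AC nuclei exceeded every other class, by 0.67 (RGC, 10 of 15 retinas, exact permutation p = 0.0203857) to 1.85 (horizontal, 14 of 15). PENK exceeded every class but RGC, by 0.68 (Müller, exact permutation p = 0.010437) to 0.98 (horizontal, p = 0.0180664), with astrocytes not past the threshold (0.71, p = 0.0537109). CRH exceeded every class but RGC and Müller nuclei, by 1.04 (bipolar, exact permutation p = 0.00805664) to 1.39 (rod and horizontal, p = 0.000244141), with Müller at 0.55 (p = 0.0999756). The 15 AC-gated nuclei with at least 2 CRH UMIs had a profile unlike that of other AC nuclei, given in the last section. Against the highest of all other classes in each retina CCK was at -0.63 (exact permutation p = 0.0210571), PENK at -0.75 (p = 0.0181274) and CRH at -0.37 (p = 0.380493). That reference, here and for TAC1, VIP, NPY, ADCYAP1 and SST above, is a maximum over classes, some so small that 1 UMI gives a large CPM. A maximum lowers each difference, so no direction is read from these 3 values. These p-values come from 200 such tests over the members and are unadjusted. TAC1 in RGC nuclei exceeded bipolar (0.68, exact permutation p = 0.0449829), cone (1.15, p = 0.00256348) and Müller nuclei (0.99, p = 0.0384521) taken singly. VIP there exceeded bipolar (0.73, exact permutation p = 0.0420532) and cone nuclei (0.97, p = 0.00366211), with Müller not past the threshold (0.36, p = 0.373779). Against the highest of the 3 in each retina VIP in RGC nuclei was at -0.059 (exact permutation p = 0.866455) and TAC1 at 0.22 (p = 0.52887). NPY there was at -0.76, lower in 11 of 15 retinas (exact permutation p = 0.0231323), with none of the 3 classes past the threshold singly. Of the rare members, AC exceeded RGC nuclei also in CARTPT, by 1.17 in 13 of 15 retinas (exact permutation p = 0.000793457). GAL was at 0.29, higher in 7 and lower in 1 (exact permutation p = 0.03125). It had only 16 UMIs in all AC nuclei and 3 in all RGC nuclei, so no direction is read from it. PENK (0.093, exact permutation p = 0.625977) and CRH (0.040, p = 0.922485) were not past the threshold.

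Few nuclei held each peptide. Among nuclei thinned to 1000 UMIs, 1.50 ± 1.18% of AC nuclei had a TAC1 UMI, 1.36 ± 1.19% a VIP UMI and 2.17 ± 1.45% an NPY UMI (mean ± SD over 15 retinas). The same shares in cone nuclei, which should lack these peptides, were 0.201%, 0.151% and 0.218%, and in Müller nuclei 0.168%, 0.270% and 0.537%. In RGC nuclei 1.24 ± 1.24% had an SST UMI and 3.24 ± 1.36% an ADCYAP1 UMI, against 0.165% and 0.269% of cone nuclei. Without thinning the shares were 2.78%, 2.21% and 4.20% of AC nuclei for TAC1, VIP and NPY (cones 0.569%, 0.480% and 0.835%), and 4.31% and 16.9% of RGC nuclei for SST and ADCYAP1 (cones 1.06% and 1.28%). Median depth per retina was 1476 to 7018 UMIs in AC, 2933 to 14054 in RGC and 1526 to 11516 in cone nuclei.

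Nuclei with at least 2 UMIs of a peptide were then described, without a test, since the peptide chose them. There were 222 such AC nuclei for TAC1 in 15 retinas (up to 30 UMIs in a nucleus), 202 for VIP in 14 retinas (up to 71) and 274 for NPY in 15 retinas (up to 41). RGC nuclei numbered 154 for SST in 13 retinas (up to 157 UMIs) and 202 for ADCYAP1 in 15 retinas (up to 12). A further 171, 180 and 238 nuclei with TAC1, VIP or NPY had no class, and such nuclei held 34.7%, 34.7% and 39.3% of the UMIs of these genes. The nuclei with ADCYAP1 were deeper than other RGC nuclei (median 8258 against 4706 UMIs), as were those with SST (6635 against 4730). Pooled over retinas, nuclei with TAC1, VIP and NPY had medians of 2772, 2873.5 and 3450.5 UMIs against 3195, 3191 and 3180 in other AC nuclei. In the earlier release, where these genes were higher, AC medians per retina were lower (1476 to 2786 against 2349 to 7018 UMIs). The pooled medians therefore do not compare nuclei of the same retina.

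Nuclei with at least 2 UMIs of each of 2 genes were counted beside the product of the 2 shares, the overlap that the pooled shares alone would give. The retinas differed in these shares, so the product is not the overlap that the shares within each retina would give. For TAC1 and VIP there were 2 such AC nuclei (product 3.07), for TAC1 and NPY 1 (4.16) and for VIP and NPY 1 (3.79). Counts this small cannot tell separate nuclei from independent ones, and no test was made. TAC1 and CARTPTli1 shared 107 nuclei of 14 retinas (product 8.49), which is 48.2% of the TAC1 nuclei and 19.1% of the 559 CARTPTli1 nuclei. VIP and CARTPTli1 shared 25 nuclei (product 7.73, 12.4% of the VIP nuclei) and NPY and CARTPTli1 shared 4 (product 10.5, 1.46% of the NPY nuclei). Among nuclei without a class, TAC1 and CARTPTli1 shared 63, or 36.8% of the TAC1 nuclei. In RGC nuclei SST and ADCYAP1 shared 3, all of 1 retina (product 4.59).

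The transmitter genes of these nuclei differed with the peptide. SLC6A9 and GAD1 were also markers of the AC gate, so which nuclei entered the class depended partly on them. SLC6A9, the glycine transporter GlyT1 of glycinergic ACs, was at 52.1 CPM in TAC1 nuclei against 244 in other AC nuclei, lower in 14 of 14 retinas. Counts of retinas here and for the genes that follow are over retinas with at least 5 nuclei of the peptide. It was at 83.7 against 243 CPM in VIP nuclei, lower in 13 of 13 retinas. In NPY nuclei it was at 424 against 234 CPM, higher in 7 retinas and lower in 7, so the retinas did not share the pooled direction. It was at 50.4 against 251 CPM in CARTPTli1 nuclei, lower in 15 of 15 retinas.

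CHAT, the acetylcholine-synthesizing enzyme of starburst ACs, was at 89.5 CPM in TAC1 nuclei against 30.2 in other AC nuclei, higher in 14 of 14 retinas. The other starburst genes did not move with it in each retina: SLC18A3, the vesicular acetylcholine transporter, was at 54.4 against 13.7 CPM but higher in 9 and lower in 5 retinas, and SLC5A7, the choline transporter, was at 14.7 against 62.6 CPM and lower in 13 of 14. CHAT was at 2.66 CPM in VIP nuclei and at 3.42 in NPY nuclei, lower than in other AC nuclei in 13 of 13 and 14 of 14 retinas. TFAP2B, an AC transcription factor used in the gate, was at 671 against 322 CPM in TAC1 nuclei. GAD1, which makes GABA, was at 19.9 against 7.83 CPM in VIP nuclei, higher in 9 of 13 retinas, and at 5.66 against 8.03 in TAC1 nuclei.

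SST nuclei among RGCs carried SPP1, osteopontin, a marker of alpha RGCs in mice, at 305 CPM against 26.0 in other RGC nuclei, higher in 10 of 10 retinas and with an SPP1 UMI in 70.1% of them. KCNG4, another alpha RGC gene, was at 23.8 against 5.49 CPM, higher in 8 of 10 retinas. FOXP2 and SLIT2, also from the list of RGC subset genes, were at 17.9 against 150 and 33.2 against 204 CPM. ADCYAP1 nuclei had SLIT2 at 328 against 192 CPM, higher in 11 of 13 retinas. TBX20, a transcription factor of melanopsin RGCs, was at 11.6 against 2.98 CPM in ADCYAP1 nuclei but higher in 4 and lower in 9 retinas.

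**Figure D4:**
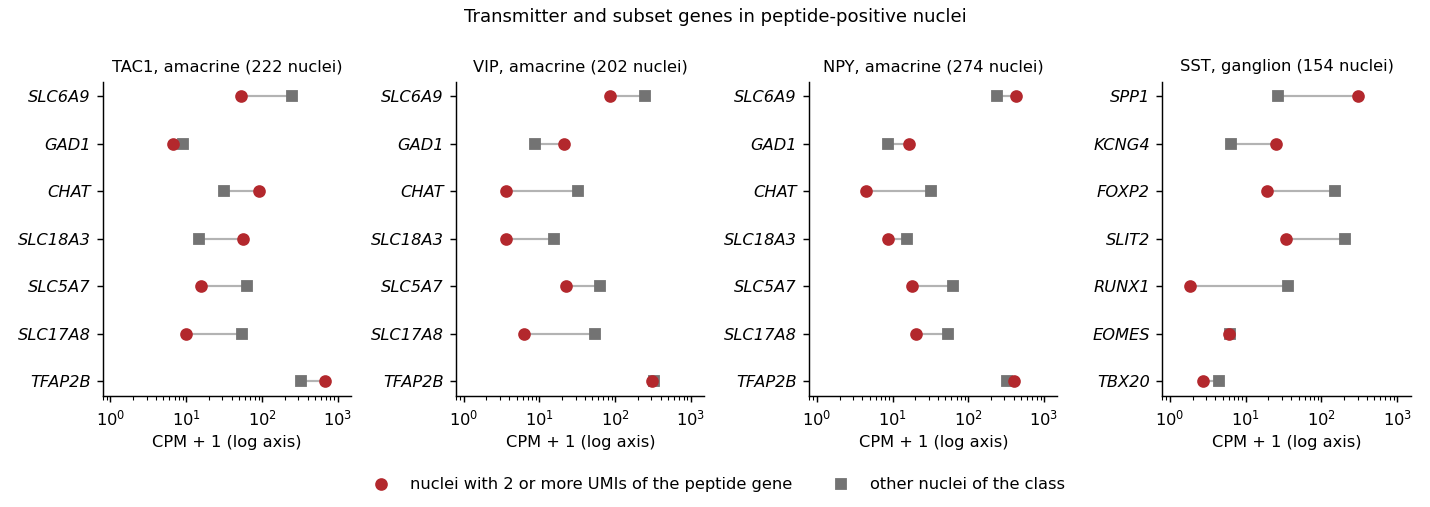
Level in CPM plus 1 (log axis) of transmitter and subset genes in nuclei with at least 2 UMIs of a peptide and in the other nuclei of the same class, pooled over retinas, for TAC1, VIP and NPY in AC nuclei and SST in RGC nuclei. SLC6A9 is lower in TAC1 and VIP nuclei, CHAT is higher in TAC1 nuclei, and SPP1 is higher in SST nuclei (305 against 26.0 CPM). SLC6A9, GAD1 and TFAP2B were markers of the AC gate.

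By the fixed rule for co-expressed genes, a mean log2 ratio with 5 CPM added over retinas with at least 10 such nuclei, the leading genes of TAC1 nuclei (8 retinas, 179 nuclei) were SLC26A4, an anion exchanger, at 5.20, SULF1, a heparan sulfatase, at 4.36, SLC35D3 at 4.10 and SSTR2, the somatostatin receptor, at 4.03. VIP nuclei (6 retinas, 155 nuclei) were led by RNF220 at 3.75, CBLN4, a synaptic organizer, at 3.73, GLIS3 at 3.27 and ASAH2 at 3.19. NPY nuclei (12 retinas, 259 nuclei) were led by CNIH3, an AMPA receptor auxiliary subunit, at 2.34, ANKFN1 at 2.22, UNC5D, a netrin receptor, at 2.07 and NECAB1 at 1.97. SST nuclei (5 retinas, 112 nuclei) were led by SPP1 at 2.88, IL18R1 at 2.71, TBR1, a transcription factor of RGC subsets, at 2.62 and IRF8 at 2.43. ADCYAP1 nuclei (7 retinas, 154 nuclei) were led by PDGFD at 1.86, BNC2 at 1.27, FGD4 at 1.09 and CDH6, a cadherin, at 1.05.

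Of the 14609 AC nuclei 381 were gated as GABAergic (GAD1) and 5855 as glycinergic. No member had counts enough to be tested between these gates, where 19.7% of 5378 features were called. CARTPTli1 was higher in the GABAergic gate by 1.98 ± 0.22 (log2, SE, adjusted p = 1.15e-08).

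Between stages, edgeR called no member in any class. The test compared retinas with the release as a term and adjusted over all features tested. In AC nuclei 6 members were tested (TAC1, VIP, NPY, SST, ADCYAP1 and CCK) and 0 were called, where 1.11% of 15563 features were called between Senile and Infancy, 0.63% between Mature and Infancy and 0% between Senile and Mature (1566 at an unadjusted p under 0.05). In RGC nuclei 5 were tested and 0 called, where the background was 0.967%, 0.658% and 0% of 14895 features (916 at an unadjusted p under 0.05 in the last). SST and NPY in bipolar, SST and ADCYAP1 in cone and NPY in Müller nuclei were not called either (background in the order of contrasts above 1.33%, 0.911% and 0% in bipolar, 1.92%, 1.35% and 0.00689% in cone and 0.751%, 0.489% and 0.00905% in Müller nuclei). At an unadjusted p under 0.05 edgeR gave 3 of 18 member tests in AC nuclei and 1 of 15 in RGC nuclei, and DESeq2 gave the same numbers, with 0 after adjustment. Over all features edgeR had 1301, 1918 and 1566 of 15563 under it in AC nuclei, in the order of contrasts above. In RGC nuclei it had 793, 1040 and 916 of 14895.

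TAC1 in AC nuclei averaged 49.6 ± 38.3 CPM in Infancy, 16.6 ± 16.4 in Mature and 26.8 ± 25.6 in Senile retinas (SD, n = 5 each). With the release in the model, Mature was at -1.07 ± 0.39 against Infancy (log2, SE, edgeR adjusted p = 0.260798) and Senile at 0.95 ± 0.40 against Mature (adjusted p = 0.478). Without the filter on low counts the Mature to Infancy contrast was called for TAC1 (-1.02, adjusted p = 0.000341049) and for VIP (-1.11, adjusted p = 5.18336e-06), where 1.33% of features were called. Without it VIP and SST were also called between Senile and Infancy (-0.94 and 1.34, background 1.08%) and TAC1 between Senile and Mature (0.85, background 0.682%). TAC1, VIP and SST also passed the filter, and their estimates were alike with it (Mature to Infancy -1.07 for TAC1 and -1.15 for VIP). Their counts were the same in both fits. Only the features fitted beside them changed, 53261 without and 15563 with the filter. What moved the p-values was not tested, so no stage difference is read from these calls. SST in AC nuclei was at 20.8 CPM in Senile retina 1 and at 3.63 to 7.15 in the other Senile retinas. CCK was at 1.26 ± 0.53 between Senile and Mature (adjusted p = 0.477), on means of 4.88 and 1.62 CPM against 6.56 in Infancy. NPY averaged 61.0 ± 55.9, 25.4 ± 21.5 and 33.1 ± 23.0 CPM by stage, with no contrast past 0.44 in size. In RGC nuclei SST averaged 28.9 ± 15.0, 11.8 ± 10.9 and 29.4 ± 39.4 CPM by stage. The Senile mean rested on Senile retina 2 (99.6 CPM), and the other Senile retinas were at 6.87 to 17.2. SST between Senile and Infancy was at -0.06 ± 0.61 (adjusted p = 0.9997), and at -1.17 ± 0.60 without Senile retina 2 (adjusted p = 1). ADCYAP1 averaged 36.7 ± 11.4, 33.1 ± 8.67 and 32.8 ± 15.6 CPM and differed between Senile and Infancy by -0.15 ± 0.22. NPY in RGC nuclei was at 1.96 ± 0.88 between Senile and Mature (adjusted p = 0.797). CCK in RGC nuclei was too rare to be tested over the 15 retinas. In the earlier release it had 12, 39 and 19 UMIs in the 3 Infancy, 3 and 7 in the 2 Mature and 0 and 2 in the 2 Senile retinas. In the later release CCK was at 1.34 CPM in Infancy and 1.73 in Senile retinas. In a fit of the earlier release alone CCK passed the filter through its Infancy counts, so nothing is read from its call there (2.58% of features called).

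VIP in AC nuclei averaged 88.7 ± 85.3 CPM in Infancy, 26.3 ± 30.6 in Mature and 16.0 ± 12.7 in Senile retinas, and its Senile to Infancy contrast was -0.92 ± 0.76 (adjusted p = 0.844). The estimates of the 2 releases had opposite signs. In the earlier release VIP went from 145 CPM (3 Infancy retinas) to 59.7 (2 Mature) and 19.7 (2 Senile). Fitted in those 7 retinas alone, a choice made after the data were seen, Senile was lower by -3.00 ± 0.30 (edgeR adjusted p = 0.000370898) and Mature by -1.28 ± 0.24 (adjusted p = 0.0384), where 0.901% and 0.585% of features were called. In the later release the means were 4.77, 4.01 and 13.5 CPM and the Senile to Infancy contrast 1.30 ± 0.91 (adjusted p = 0.841, background 0.283%). The mean of 13.5 CPM, and with it the positive sign, rested largely on Senile retina 3 at 33.3 CPM. Senile retinas 4 and 5 were at 1.37 and 5.83 CPM, and Infancy retinas 4 and 5 at 3.06 and 6.48. The difference between the releases, 4.18 ± 1.00, was not called over all features (adjusted p = 0.548, where 0.0129% were called). Senile retina 3, at 33.3 CPM, moved the pooled result past the threshold when left out: without it VIP was at -2.03 over the other 14 retinas (adjusted p = 0.0443, where 1.09% of features were called). Leaving out any other single retina gave no such call, so this fit was the exception.

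Of 15 stage tests of members' shares of thinned nuclei, 0 had an unadjusted p under 0.05. TAC1 was in 2.25%, 0.840% and 1.41% of AC nuclei in Infancy, Mature and Senile retinas, and the Mature to Infancy difference of -1.41 percentage points had a 2-sided exact permutation p of 0.119048 (5 retinas against 5, smallest possible 0.00793651). Permuted within releases it was -0.999 points (exact permutation p = 0.04), and without Infancy retina 5 its permutation p was 0.0396825. SST between Senile and Mature had an exact permutation p of 0.0238095 without Mature retina 2. VIP was in 1.77%, 1.14% and 1.16% and NPY in 2.81%, 1.62% and 2.09% of AC nuclei. ADCYAP1 was in 3.19%, 3.23% and 3.30% of RGC nuclei, and SST in 1.90%, 0.599% and 1.22% (Mature to Infancy, exact permutation p = 0.198413). The cone and Müller shares given above were the background, and 66, 69 and 205 AC nuclei of the 3 stages were too shallow to be thinned.

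Between releases most AC peptides differed. TAC1 averaged 55.9 ± 26.1 CPM in AC nuclei of the 7 retinas of the earlier release and 9.22 ± 5.42 in the 8 of the later one, VIP 84.6 ± 66.0 and 7.75 ± 10.4, NPY 69.0 ± 36.0 and 14.3 ± 11.9 and CCK 7.75 ± 4.40 and 1.39 ± 0.949. Of the 6 members tested, 5 were lower in the later release and called, where 14.8% of 15563 features were lower and 28.1% called in all. CCK, 1 of the 5, passed the filter on low counts through retinas of the earlier release, so nothing is read from its call. It was at 10.8, 13.6 and 7.33 CPM in Infancy retinas 1 to 3 and at 6.01 and 11.5 in Senile retinas 1 and 2. Its highest value in the later release was 3.20 CPM. VIP was at -3.46 ± 0.61 (log2, SE, edgeR adjusted p = 0.000688), TAC1 at -2.69 ± 0.33 (adjusted p = 7.24e-05), CCK at -2.53 ± 0.43, NPY at -2.38 ± 0.42 and ADCYAP1 at -1.01 ± 0.27. SST was at -0.79 ± 0.61 (adjusted p = 0.358). CARTPTli1 was at -1.17 ± 0.19, on 76.3 ± 22.2 and 33.7 ± 8.10 CPM.

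In RGC nuclei, where 20.8% of features were called (8.73% lower), 1 of 5 members was called between releases: ADCYAP1 at -0.76 ± 0.19 (adjusted p = 0.00990), on 43.1 ± 6.52 and 26.4 ± 8.85 CPM. The others were not called: TAC1 was at -1.77 ± 0.63 (adjusted p = 0.0556), VIP at -1.42 ± 0.79, SST at -1.34 ± 0.52 (adjusted p = 0.0789) and NPY at -1.06 ± 0.75. NPY was lower in the later release also in bipolar (-1.84 ± 0.52) and Müller nuclei (-2.11 ± 0.60), where 22% and 20.7% of features were called (11% and 11.1% lower). Summed over all nuclei, whatever their class, where 36.4% of features were called (16.8% lower), 8 of the 10 members were lower in the later release, among them TAC1 at -2.78, VIP at -2.94, NPY at -2.12, CRH at -3.27 and PENK at -2.85, while CARTPT was at 0.06 (adjusted p = 0.913). Median AC depth was 1476 to 2786 UMIs in the earlier and 2349 to 7018 in the later release, and its part in the result was not tested.

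**Figure D5:**
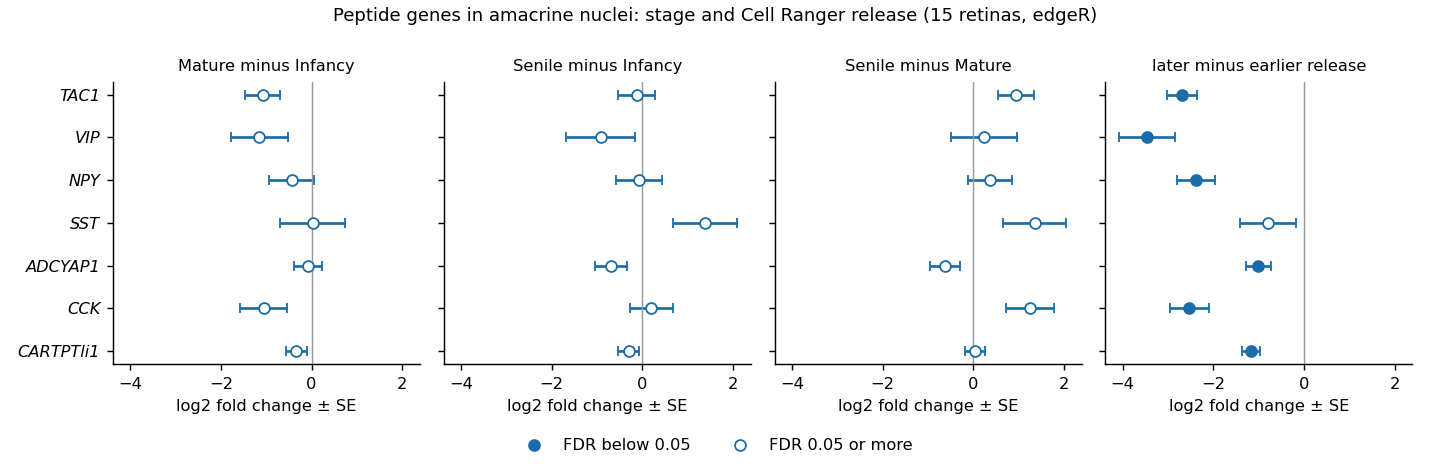
Log2 fold change (points) with its SE (bars) of the 6 members tested in AC nuclei and of the CARTPTli1 copy. Panels show the 3 stage contrasts and the later minus the earlier Cell Ranger release, and filled points have an edgeR adjusted p under 0.05. No stage contrast is filled, and TAC1, VIP, NPY, CCK, ADCYAP1 and CARTPTli1 are filled for the release, at -1.01 to -3.46. CCK passed the filter on low counts through the earlier release, so nothing is read from its call.

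The rest of the pathway came from 3 lists: peptide receptors (26 of 28 genes in the files), processing and release (26 of 26) and other peptides (29 of 32). Between AC and RGC nuclei, 7 of 11 tested receptors were higher in AC and 2 lower (24.6% and 26.9% of all features), with a median log2 difference of 0.92 against -0.02 over all features. TACR1, the substance P receptor, was higher in AC nuclei by 3.28, VIPR1 by 2.99 and SSTR2 by 2.88, and ADM, adrenomedullin, was lower by -2.93. Against bipolar, cone and Müller nuclei, where 74.5% of features were called (36.2% higher), 7 of 11 receptors were higher in AC and 3 lower, led by TACR1 at 5.16, VIPR2 at 4.08 and SSTR2 at 3.83, and SYT7, a calcium sensor of vesicle release, was at 3.76. RGC nuclei, where 74.8% of features were called (37.7% higher), were higher than those classes in 7 of 11 receptors and lower in 3, led by VIPR2 at 4.54 and CRHR1, the CRH receptor, at 3.89, with RAB27B at 3.66 and SYT7 at 3.54. Processing and release genes were higher in 16 and lower in 5 of 24 for AC nuclei, and higher in 18 and lower in 6 for RGC nuclei. The main PACAP receptor ADCYAP1R1 and NPY2R were listed at 0 in every library, as were the defining markers GAD2, SLC32A1 and POU4F2. Such a 0 says only that no UMI was assigned to the feature, and the part of the annotation in it was not tested.

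Between stages no list gene was called by edgeR in AC nuclei (0 of 8 receptors, 0 of 23 processing and release genes, 0 of 8 other peptides; 11 of 117 tests at an unadjusted p under 0.05). DESeq2 called 3 of these tests: SSTR2 at -0.68 (adjusted p = 0.0303) and VIPR1 at -0.97 (adjusted p = 0.0349) between Senile and Infancy, and SSTR2 at -0.62 between Mature and Infancy (adjusted p = 0.0465). In these contrasts DESeq2 called 1.64% and 1.6% of all features. In RGC nuclei both tools called none (10 and 11 tests at an unadjusted p under 0.05). In bipolar nuclei edgeR called none of 108 tests and DESeq2 called 1, NPY5R between Mature and Infancy at -1.31 (adjusted p = 0.0247, background 2.28%), with 17 and 16 tests at an unadjusted p under 0.05. Over all features edgeR had 1287 (Senile to Infancy), 1806 (Mature to Infancy) and 1436 (Senile to Mature) of 13945 under it in bipolar nuclei. The AC and RGC numbers over all features are given with the members above.

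Processing and release genes were also compared between releases. In AC nuclei, where 14.8% of features were lower in the later release, 13 of 23 were lower and none higher, with a median of -0.87 against 0.0127 over all features. PCSK1N, a convertase inhibitor, was at -3.07, and the granule proteins SCG2 and CHGA at -2.78 and -2.44. In RGC nuclei, where 8.73% of features were lower, 11 of 22 were lower and 1 higher, while 1 of 5 members was called there. The list was led by PCSK1N at -2.48 and CHGA at -1.96. In cone nuclei, where 27.1% of features were called, 3 of 20 were lower and 4 higher. Of the other peptides in AC nuclei 3 were higher and 3 lower, among them NPVF, the RFamide precursor, at 3.03 and TAC3, neurokinin B, at -2.21.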

How the data were processed

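The deposited values were raw UMI counts per feature and nucleus, 1 matrix per retina, made by the authors with Cell Ranger against the TS_3.0 genome. Per the labels the release was 5.0.1 for 7 libraries and 7.0.1 for 8. Per the file headers it was 6.1.2 and 7.0.1, with the same split. Whether intronic reads were counted is not given in the sources used here. Replicates are retinas of separate animals.

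Nuclei with 200 to 6000 genes and at most 5% mitochondrial UMIs were kept. Those most like simulated doublets were then removed, in a number set beforehand at 8 per 1000 nuclei for each 1000 nuclei of the library. Only 1 feature was named as mitochondrial, and 119765 of 120437 barcodes passed these limits. A nucleus took the class with the highest mean standardized marker level, with at least 2 markers and a lead of 0.25 over the next class. A gate on the markers the study names gave the same class to 97.9% of the 58773 nuclei gated by both. The gates share many markers, and nuclei gated by only 1 of them are not in this share. With the study's markers there were 21509 AC and 5650 RGC nuclei, against 14609 and 6781. Counts were summed per retina and class (at least 10 nuclei) and tested with edgeR 4.0.16 (TMM, filterByExpr, quasi-likelihood, R 4.3.3) on stage and release, or on class with the retina as a block. Adjusted p-values are Benjamini-Hochberg over all features tested, called under 0.05. Single values were tested by exact permutation (scipy 1.17.1) on log2(CPM + 1) or shares. DESeq2 1.42.0, other normalization, no filter, other gates, doublets kept and each retina left out were tried. On simulated counts the AC stage test recovered 39% of 2-fold and 82% of 4-fold changes over 15034 genes, and the RGC test 32% and 77% over 14485. The changed genes were drawn at random from all genes and no release effect was simulated, so these shares need not hold for the members.

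Named genes were the members, up to 4 called genes of the pathway lists with the largest change per contrast, and the 4 leading co-expressed genes. One alternative gate and some list genes are not reported here. Members and lists were chosen with earlier results of these data known. Antisense features overlap CARTPT, SST, PENK and ADCYAP1 (1 to 140 UMIs each), and whether counting used strand is not stated. The 3 files that list barcodes, features and counts were all used.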

Additional observations from a re-analysis of the deposited data

Results flagged for a closer look

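In 9 of 48 groups of 5 retinas, 1 retina stood apart from the others by Dixon's test. The test's rate of about 1 in 20 groups holds for normal values from 1 population. Each group here mixed both releases, so the 9 cannot be set against that rate. In AC nuclei these were TAC1 at 72.2 CPM in Senile retina 2, NPY at 62.4 CPM in Mature retina 2, SST at 8.77 CPM in Mature retina 4 and at 20.8 CPM in Senile retina 1, and CRH at 18.8 CPM in Infancy retina 1, 13.3 CPM in Mature retina 2 and 5.74 CPM in Senile retina 2. In RGC nuclei they were VIP at 13.6 CPM in Mature retina 1 and SST at 99.6 CPM in Senile retina 2. All but SST in Mature retina 4 belonged to the earlier release. The SST value of Senile retina 2 was 23.7 CPM without 1 nucleus of 157 SST UMIs.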

How the results depend on the processing

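Of the members' counts of calls over comparisons and settings, 186 were within 1.5 times the reported count and 13 were not. Without the filter on low counts, 5 member calls appeared between stages in AC nuclei (0.682% to 1.33% of features called per contrast), 3 in RGC nuclei (0.969%, 0.732% and 265 of 50376 features), 1 each in Müller and astrocyte nuclei (0.925% and 0.185%), 2 in other classes in all, and 2 between the GABAergic and glycinergic gates (7.07%). Calls against bipolar, cone and Müller nuclei became 9 for AC and 8 for RGC nuclei (32.6% and 31.9%). Within the earlier release (chosen after seeing the data) 2 were called in AC nuclei (VIP) and 1 in RGC nuclei (CCK, which passed the filter there through its Infancy counts, so nothing is read from it), DESeq2 called 3 list tests in AC and 1 in bipolar nuclei, and permutation within releases gave 1 share below 0.05. Leaving out 1 retina gave 0 to 1 stage calls in AC nuclei (1 without Senile retina 3) and 0 to 1 shares below 0.05. Of the other values, 991 kept direction and call, 15 crossed the threshold, 40 changed sign and 35 moved, and the cause was not tested.

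With the gate on the study's markers, SST was at -0.15 in AC and NPY at -0.18 in RGC nuclei against bipolar, cone and Müller nuclei. The other changes of sign were uncalled Senile to Infancy contrasts. TAC1 in AC nuclei was at 0.050 with no lead, 0.062 with the study's markers, 0.75 within the later release and 0.53 over all nuclei, and from -0.46 to 0.32 with 1 retina left out. VIP was at 1.30 within the later release. NPY was at 0.0087 with DESeq2, 0.015 with no lead, 1.43 within the later release, 0.37 over all nuclei, and from -0.56 to 0.24 with 1 retina left out. CCK was at -0.60 without the release term, -0.22 with the replicate block, -0.14 with a larger lead, -0.23 with the study's markers, -0.46 within the earlier release, and from -0.18 to 0.54 with 1 retina left out. ADCYAP1 over all nuclei was at 0.018, CARTPTli1 within the later release at 0.073, and SST in RGC nuclei at 0.52 within the earlier release and from -1.17 to 0.24 with 1 retina left out. The NPY share difference was 0.25 points when thinned to 2000 UMIs. For ADCYAP1 it was -6.70 points not thinned, -0.66 at 2000 UMIs, -0.0085 at 2 UMIs or more, and from -0.64 to 0.71 with 1 retina left out.

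Features called between Senile and Infancy numbered 55 to 574 in AC and 20 to 488 in RGC nuclei over the settings (173 and 144 reported), between Mature and Infancy 4 to 710 and 0 to 369 (98 and 98), and between Senile and Mature 0 to 363 and 0 to 265 (0 and 0). Without the filter 19975 and 19559 features were called for AC and RGC nuclei against the other classes. With the replicate number of the titles as a block in place of the release, AC calls were 124, 50 and 0 and RGC calls 133, 61 and 0, with 0 members called. Same-numbered retinas correlated at -0.46 to 0.52 in AC nuclei, with 13 of 15 pairs over 0.1, and no label says what a number shares, so the retinas were not taken as paired. Without the retina as a block the 5 member calls between AC and RGC nuclei held. Members under 1 CPM in a class are limited by depth.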

Other observations

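CRH lay mostly outside the classes: 54.5% of its UMIs were in nuclei without a class, where 67 nuclei of 13 retinas held at least 2 CRH UMIs, against 15 AC and 19 RGC nuclei. In the 67 nuclei FOXP2, a transcription factor of RGC subsets, was at 1023 CPM against 30.9 in other nuclei without a class, EOMES at 125 against 1.96 and SPP1 at 170 against 6.14, higher for SPP1 in the 5 retinas compared, and TFAP2B at 8.93 against 69.4. The 15 AC-gated CRH nuclei had FOXP2 at 905 against 36.3 CPM, EOMES at 117 against 1.63, SPP1 at 285 against 4.92 and TFAP2B at 16.8 against 327, so their profile was unlike that of other AC nuclei. The 19 RGC-gated CRH nuclei had FOXP2 at 620 against 144 CPM. FOXP2, EOMES and SPP1 came from the list of RGC subset genes, whose other genes are not given for these nuclei, and TFAP2B from the AC gate. The nuclei were chosen by CRH, and no test was made.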
